A study of Mus musculus with 6 samples.

Results

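Cells that still held transcript of the unrecombined Tomato reporter were looked for among GFP-sorted non-myocytes of mouse hearts. A barcode with at least 1000 UMIs (molecule counts) was taken as a cell, and where a barcode sequence occurred in several libraries only its occurrence with the most UMIs was kept. Of 12493 such cells, 402 (3.22%) held at least 1 Tomato UMI and are called Tomato-holding cells here. The other 12091 cells are called Tomato-free. The cells were chosen by their measured Tomato counts, so the Tomato levels below are a description. Of the Tomato measures, only how often such cells occurred was compared between genotypes, and the choice of cells did not use genotype.

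The study compared a control group of 3 libraries, Wt1CreERT2:Rosa26mTmG, with a Dsp_het group of 3 libraries that also carried DspW/F, a conditional allele of the desmoplakin gene. All mice were C57BL/6, aged 3 to 6 months, and all 6 libraries shared the Cre and the reporter. Hearts were perfused with collagenase II, myocytes were removed, EGFP-positive cells were sorted, and single cells were captured for 10x 3′ sequencing. The inducible Cre is driven from Wt1, so the deletion and the colour change are limited to cells in which Wt1 was active when Cre was induced, and to their descendants. When Cre was induced is not in the labels, nor whether each library came from a single animal, so the tests take libraries, not animals, as the unit.

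The mTmG reporter sits in the Rosa26 locus and is read from a promoter active in nearly all cell types. Before Cre acts, a cell makes a membrane-bound red fluorescent protein, Tomato. Cre removes the Tomato cassette together with its stop signal, and the same promoter then drives membrane-bound GFP. An allele therefore makes either Tomato or GFP RNA, and a sort on GFP protein should hold mostly cells with GFP RNA. RNA and protein made before the switch can outlast it for some time.

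The libraries held between 7175464 and 16485109 UMIs in kept cells. Dsp, the gene of the conditional allele, had between 11 and 72 UMIs per library, or 1.25, 3.34 and 4.31 CPM in control and 1.19, 1.22 and 7.67 CPM in Dsp_het. The groups overlapped, and 3′ counts need not read the deleted part of the gene, so this checks nothing about the deletion. Of the Tomato-holding cells, 185 (46.0%) had a barcode sequence that also occurred in another library, against 13.5% of all kept cells. The matched comparisons were therefore repeated without such barcodes, with 217 Tomato-holding cells, of which 200 could be matched. Clusters were named only from marker genes and carry the word "like" for that reason.

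Tomato was scarce in every cell that held it. Over all 18283 deposited barcodes there were 667 Tomato UMIs, of which 629 lay in kept cells, 24 in barcodes under 1000 UMIs and 14 in occurrences that were left out. A single Tomato UMI was found in 269 of the 402 cells, 90 cells held 2, and 43 held at least 3. Of these 43, 11 held at least 5, and the highest count in a cell was 9. Tomato-holding cells were deep, with a median of 9051 UMIs and 2907 genes, against 4120 UMIs and 1790 genes in Tomato-free cells. The share of endothelial-like cells with a Tomato UMI rose with depth from 0.284% at 1000 to 2000 UMIs to 3.08% at 4000 to 8000 and 58.2% at 16000 or more. A cell of ordinary depth without a Tomato UMI is not shown to lack the transcript. Over all classes, cells with a barcode found in several libraries rose from 12.4% at 0 Tomato UMIs to 69.8% at 3 or more. What the rise with depth reflects was not tested.

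The share of Tomato-holding cells differed widely between libraries. In control libraries 1, 2 and 3 it was 2.71%, 2.19% and 6.25% (63, 34 and 180 cells). In Dsp_het libraries 1, 2 and 3 it was 0.139%, 2.32% and 7.31% (4, 41 and 80 cells). Dsp_het library 1 was the lowest and Dsp_het library 3 the highest, so the Dsp_het values enclosed all 3 control values. The mean was 3.72% ± 2.21 (SD, n = 3) in control and 3.26% ± 3.67 (SD, n = 3) in Dsp_het, and a two-sided exact permutation test gave p = 0.9. With every cell thinned to 1000 UMIs the means were 0.705% ± 0.442 and 0.530% ± 0.556 (SD, n = 3 each, exact permutation p = 0.6). The smallest p that 3 against 3 libraries allow is 0.1. The direction changed without control library 3, Dsp_het library 1 or Dsp_het library 2, where the difference Dsp_het minus control was 0.805, 1.10 and 0.0059 percentage points.

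The Tomato-holding cells were mostly endothelial. Of the 402, 294 (73.1%) lay in clusters led by endothelial genes, against 76.3% of all kept cells. Another 33 were pericyte-like, named from Rgs5, Kcnj8, Vtn and Abcc9, genes of the mural cells that wrap capillaries. Also 33 were macrophage-like, with the complement genes C1qa, C1qb and C1qc and the lysozyme gene Lyz2. There were 21 fibroblast-like cells (Gsn, Lum, Dpep1), 11 lymphocyte-like cells (Ccl5, Cd52, Nkg7), 4 epicardial-like cells (Upk3b, Msln, Krt19) and 2 cardiomyocyte-like cells (Myl2, Myh6, Tnni3). The last 4 lay in an unnamed cluster of low depth.

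As shares of each class, Tomato-holding cells were frequent in 3 small classes. They made up 27.5% of the 40 lymphocyte-like cells (95% exact binomial interval 14.6 to 43.9), 20.1% of the 164 pericyte-like cells (14.3 to 27.1) and 16.0% of the 206 macrophage-like cells (11.3 to 21.8). The share was 3.08% of the 9536 endothelial-like cells (2.75 to 3.45) and 1.75% of the 1203 fibroblast-like cells (1.08 to 2.66). It was 0.664% of the 602 epicardial-like cells (0.181 to 1.69), the cell type in which Wt1 is a classical marker, and 0.562% of the 356 cardiomyocyte-like cells (0.0681 to 2.01). None of the 30 erythroid-like cells held Tomato, which allows a share of up to 10% taking 3 counts as the limit, or 11.6% by the exact interval. These intervals cover counting error only. Median depth per cell was 5472 UMIs in lymphocyte-like, 5250 in pericyte-like, 11004.5 in macrophage-like, 3893 in endothelial-like, 7633 in fibroblast-like and 9554.5 in epicardial-like cells.

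**Figure D1:**
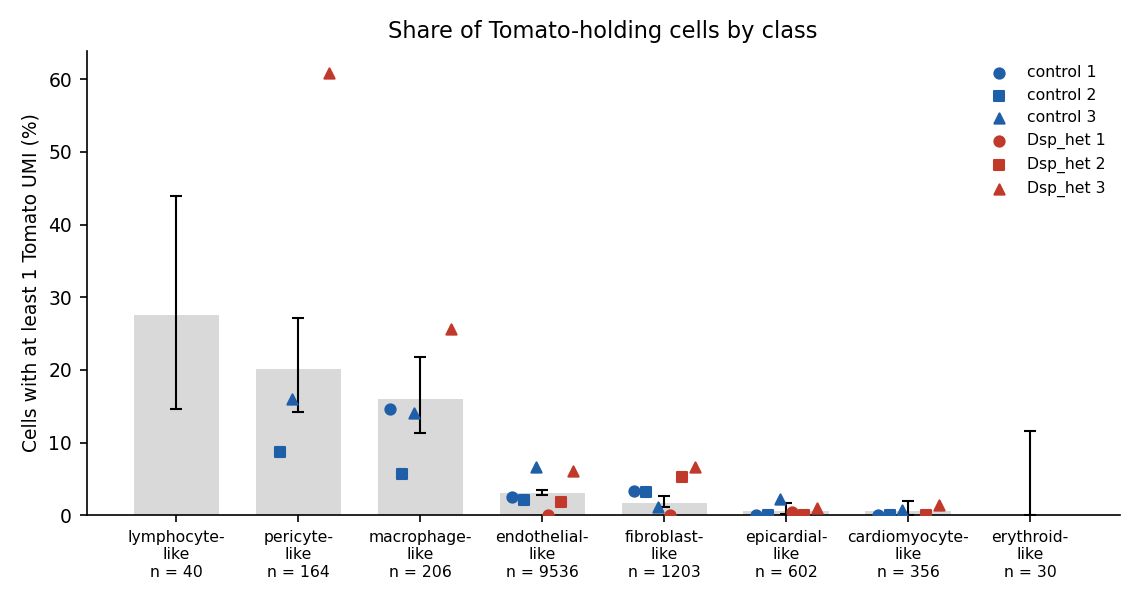
Share of cells with at least 1 Tomato UMI in each class (y axis, percent). Bars give all libraries together with 95% exact binomial intervals, n is the number of cells, and points are single libraries with at least 20 cells of the class. Lymphocyte-, pericyte- and macrophage-like cells stand at 27.5%, 20.1% and 16.0%, and endothelial-like cells at 3.08%.

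The order of lymphocyte-, pericyte-, macrophage-, endothelial-, fibroblast- and epicardial-like cells was the same with every cell thinned to 1000 UMIs. Thinning does not compare cells of like measured depth. Of endothelial-like cells at 8000 to 16000 UMIs, 15.6% held Tomato, beside 16.0% of the macrophage-like cells with their median of 11004.5 UMIs. Thinned to 1000 UMIs per cell, the shares were 3.93% in lymphocyte-like, 3.29% in pericyte-like and 1.82% in macrophage-like cells. Endothelial-like cells had 0.613%, fibroblast-like cells 0.163% and epicardial-like cells 0.039%. The remaining classes changed places, with cardiomyocyte-like cells (0.0754%) above epicardial-like cells and the unnamed cluster (0.633%, against 1.12% unthinned) above endothelial-like cells. In CPM, UMIs scaled to the total of the cells summed, Tomato was 45.2 in pericyte-like, 37.1 in lymphocyte-like, 20.1 in macrophage-like and 10.8 in endothelial-like cells. It was 3.05 in fibroblast-like and 0.82 in epicardial-like cells. Single libraries were uneven. The pericyte-like share was 0%, 8.70% and 16.0% in control libraries 1 to 3, and 14.3%, 16.7% and 60.9% in Dsp_het libraries 1 to 3. The lowest and highest of these rest on 11 and 23 cells, those of Dsp_het libraries 1 and 2 on 1 of 7 and 1 of 6 cells, and the groups overlapped (exact permutation p = 0.2, n = 3 each). The macrophage-like share was 14.6%, 5.71% and 14.1% in control and 26.3% and 25.6% in Dsp_het libraries 2 and 3. Dsp_het library 1 held only 1 macrophage-like cell, without Tomato.

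Within the 7 endothelial-like clusters the share ran from 0.983% to 7.26%. Over all libraries together, the highest was in a cluster of 468 cells led by Vwf, the von Willebrand factor gene, and by Cytl1, Ccl21a and Plvap, with 34 Tomato-holding cells. Its share was 11.0%, 17.9% and 12% in control libraries 1 to 3, and 0%, 5.88% and 8.97% in Dsp_het libraries 1 to 3. Next came a cluster of 1682 cells led by the capillary genes Timp4, Car4 and Rgcc, at 5.83% (98 cells). Its share was 2.81%, 2.49% and 9.23% in control libraries 1 to 3 and 0%, 3.31% and 12.6% in Dsp_het libraries 1 to 3, so in Dsp_het library 3 it was above the cluster led by Vwf. Thinned, it was also above it in control library 3 (1.81% against 1.62%). They were followed by clusters at 3.69% (led by Cldn5 and Apln) and 3.05% (led by the arterial genes Gja4, Hey1 and Sema3g). The lowest, 0.983%, was in the cluster with the lowest depth, a median of 2578 UMIs. In the clusters led by Vwf and by Timp4, thinned shares were 1.16% and 1.15%, and in the other 5 they lay between 0.257% and 0.754%.

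GFP was low in the Tomato-holding cells. No GFP UMI was found in 194 of the 402 (48.3%), against 13.4% of Tomato-free cells, although Tomato-holding cells were deeper. Another 111 (27.6%) held 1 or 2 GFP UMIs, 37 (9.20%) held 3 to 9, and 60 (14.9%) held 10 or more. In Tomato-free cells, 52.6% held 10 or more. Over all cells, GFP reached 504 CPM in Tomato-holding and 2768 CPM in Tomato-free cells, and in the endothelial-like class 567 and 3845 CPM. By class, GFP was lowest in erythroid-like (7.56 CPM), lymphocyte-like (31.4 CPM) and cardiomyocyte-like cells (45.4 CPM), with median depths of 9715, 5472 and 3969 UMIs. Macrophage-like cells had 181 CPM. How much of this was free or misassigned GFP RNA was not tested.

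GFP did not fall steadily with the number of Tomato UMIs. Among endothelial-like cells, 51.3% of those with 1 Tomato UMI, 45.5% of those with 2 and 45.2% of those with at least 3 had no GFP UMI, against 8.08% of those with none. GFP was 532, 733 and 458 CPM in the first 3 sets and 3845 CPM in the last. Over all classes the share without GFP was 51.3%, 45.6% and 34.9% with 1, 2 and at least 3 Tomato UMIs, and the cells grew deeper in that order (medians of 7919, 10251.5 and 15429 UMIs). Thinned to 1000 UMIs it was 79.3%, 76.9% and 82.1%. Cells just inside and just outside the rule, with 1 and 0 Tomato UMIs, thus differed in GFP as much as cells farther inside it.

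The direction of the GFP difference was not the same in all classes. Fibroblast-like Tomato-holding cells had 295 CPM of GFP against 887 CPM in Tomato-free cells of the class, and 52.4% against 14.8% had no GFP UMI. Pericyte-like Tomato-holding cells had 553 against 959 CPM, but only 33.3% of them lacked a GFP UMI, against 58.8% of the shallower Tomato-free pericyte-like cells. Thinned to 1000 UMIs, those shares were 76.1% and 74.4%. Macrophage-like Tomato-holding cells had 301 against 152 CPM of GFP. Dsp_het library 2 gave 1220 against 200 CPM, Dsp_het library 3 gave 70.6 against 152 CPM, and control libraries 1, 2 and 3 gave 89.3 against 29.8, 55.7 against 153 and 316 against 223 CPM. Macrophage-like GFP was thus higher in Tomato-holding cells of 3 libraries and lower in 2. These class values are descriptions of cells not matched for depth, and the difference between classes was not tested.

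To compare like with like, each Tomato-holding cell was matched to 3 Tomato-free cells of the same library and cluster whose UMI totals lay within 0.5 on the log2 scale. This could be done for 305 of the 402 cells, with 915 matched cells. Of the 97 left out, 55 were endothelial-like, 19 of the 33 pericyte-like, 10 of the 11 lymphocyte-like and 7 of the 33 macrophage-like. The matched comparison thus says little about pericytes and lymphocytes. Dsp_het library 1 entered with 3 Tomato-holding cells, and its values carry that error. Of these, 2 were endothelial-like and 1 was epicardial-like, and the last held 20401 of their 27594 UMIs. Its 3 matched cells held 58948 of the 80498 matched UMIs.

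GFP was lower in Tomato-holding than in matched cells of all 6 libraries. In control libraries 1, 2 and 3 it was 98.1 against 2205, 394 against 2535 and 636 against 2487 CPM. In Dsp_het libraries 1, 2 and 3 it was 652 against 1814, 349 against 2270 and 702 against 2736 CPM. The highest value in Tomato-holding cells, 702 CPM, was below the lowest in matched cells, so the sets did not overlap. The mean log2 ratio, with 10 CPM added to each value, was -2.51 ± 1.02 (SD, n = 6 libraries). A two-sided exact sign-flip permutation test gave p = 0.031, the smallest that 6 pairs allow. Adjusted by Benjamini-Hochberg over the 22 single measures compared, it was 0.344, so by that test it missed the threshold. In the edgeR fit across all genes, GFP had a log2 fold change of -2.53 (SE 0.193, adjusted p = 2.5e-08). Without barcodes found in several libraries it was -2.66 (edgeR adjusted p = 6.3e-24), and the mean log2 ratio was -3.70. In macrophage-like cells alone, GFP was 169 CPM in 26 Tomato-holding and 149 CPM in 78 matched cells. It was 99.1 against 17.2, 55.7 against 37.1 and 316 against 343 CPM in control libraries 1 to 3. In Dsp_het libraries 2 and 3 it was 0 against 0 and 94.9 against 61.9 CPM.

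**Figure D2:**
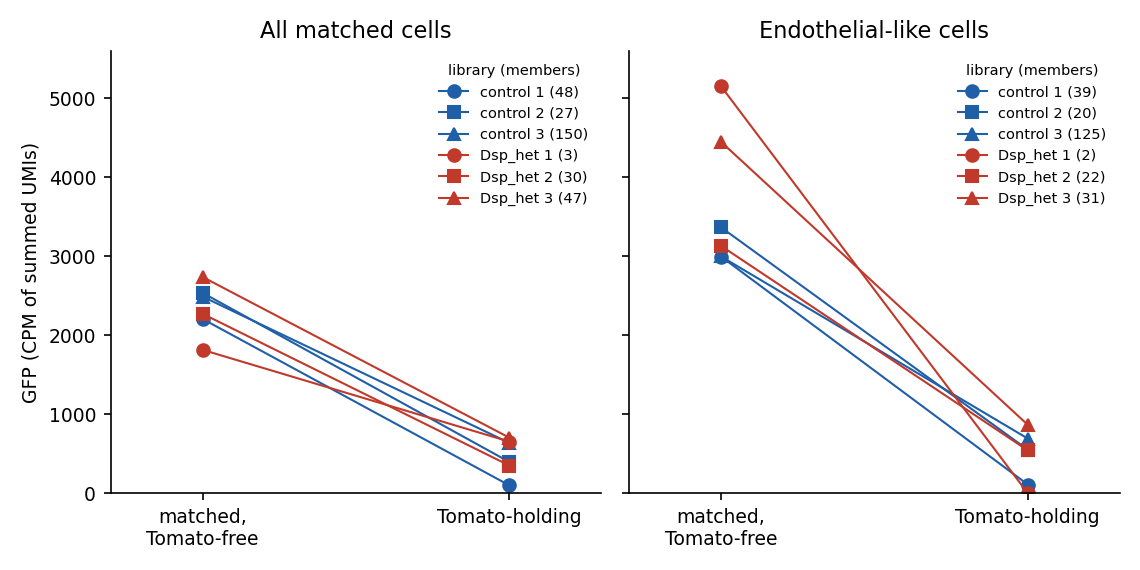
GFP in CPM of summed UMIs (y axis) in matched Tomato-free and in Tomato-holding cells, each line a library, with the number of Tomato-holding cells in brackets. Every line falls, in all matched cells (left) from 1814 CPM or more to 702 CPM or less and in endothelial-like cells (right) from 2995 CPM or more to 866 CPM or less.

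Within the endothelial-like class, 239 Tomato-holding cells and 717 matched cells gave the same picture. GFP was 110 against 2995, 550 against 3365 and 691 against 2996 CPM in control libraries 1 to 3. It was 542 against 3130 and 866 against 4447 CPM in Dsp_het libraries 2 and 3. In Dsp_het library 1, 2 Tomato-holding cells held no GFP UMI, against 5151 CPM in 6 matched cells. The edgeR log2 fold change was -2.69 (SE 0.104, adjusted p = 4.6e-64), and without Dsp_het library 1 it was -2.64 (adjusted p = 3.5e-15). The spread between libraries is given by the SD of the 6 library ratios, not by the edgeR SE or p-values. The mean log2 ratio over the 6 libraries was -3.87 ± 2.68 (SD, n = 6, exact p = 0.031). The share without a GFP UMI was 66.7%, 60% and 48.8% in Tomato-holding cells of control libraries 1 to 3, against 10.3%, 13.3% and 19.5% in matched cells. In Dsp_het libraries 1 to 3 it was 100%, 45.5% and 38.7%, against 0%, 9.09% and 4.30%. It was higher in all 6 libraries, by 50.5 ± 26.1 percentage points (SD, n = 6, exact p = 0.031, adjusted 0.344).

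**Figure D3:**
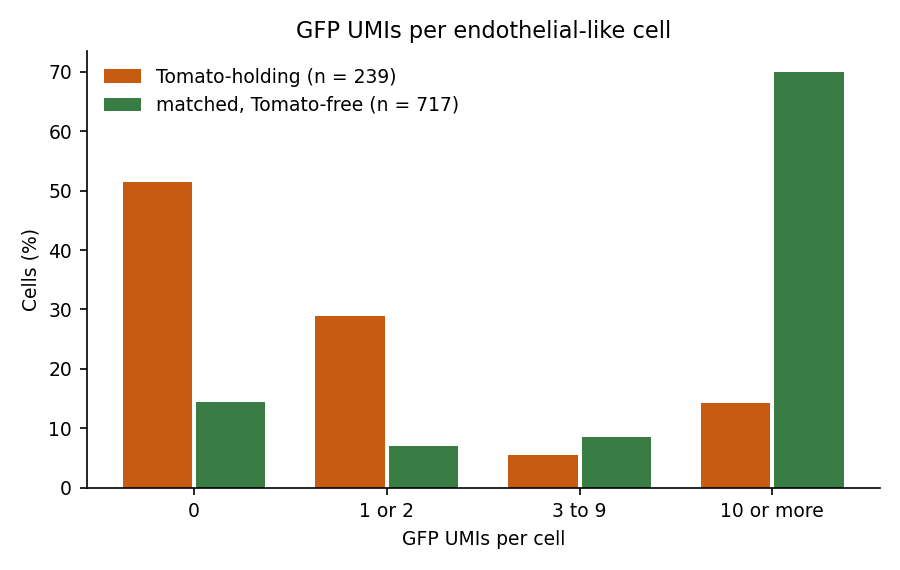
GFP UMIs per endothelial-like cell (x axis) and percent of cells (y axis) in 239 Tomato-holding and 717 matched Tomato-free cells. Of the Tomato-holding cells 51.5% held 0 and 14.2% held 10 or more GFP UMIs, and of the matched cells 14.4% and 70.0%.

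GFP in matched endothelial-like cells was mostly high or absent. Of the 239 Tomato-holding cells, 28.9% held 1 or 2 GFP UMIs and 5.44% held 3 to 9. Of the matched cells 7.11% and 8.51% did. The median Tomato count was 1 in the 14.2% of Tomato-holding cells with 10 or more GFP UMIs, and also in those with fewer or none. Before matching, 31 of 47 endothelial-like Tomato-holding cells with 10 or more GFP UMIs rested on a single Tomato UMI. So did 101 of the 145 without GFP. Among all 402 Tomato-holding cells, the 60 with 10 or more GFP UMIs had a median doublet score from Scrublet of 0.102 and a median of 11713.5 UMIs, against 0.068 and 7696.5 UMIs in the 194 without GFP. Scrublet called only 25 of the 12493 cells as doublets (0.2%) and so did not work as a caller. The part of doublets in the cells with UMIs of both reporters was not tested. Between Tomato-holding and matched cells, the mean Scrublet score differed by -0.0033 ± 0.0109 (SD, n = 6, exact p = 0.719).

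Read the other way, endothelial-like cells without GFP held Tomato far more often. Of 892 such cells, 16.3% held a Tomato UMI, against 1.72% of 8644 cells with GFP. The share was 19.1% against 1.09%, 10.7% against 0.859% and 17.7% against 4.24% in control libraries 1 to 3. It was 2.70% against 0%, 15% against 1.01% and 37.2% against 4.21% in Dsp_het libraries 1 to 3. In Dsp_het library 1, 0 of 1866 cells with GFP held Tomato. All 6 libraries thus had the higher share in cells without GFP, and thinned to 1000 UMIs the shares were 3.44% and 0.322%. By depth, the shares without and with GFP were 7.33% and 0.328% at 2000 to 4000 UMIs, 19.5% and 1.66% at 4000 to 8000, and 40.4% and 10.1% at 8000 to 16000. At 16000 UMIs or more, 19 of 32 cells without GFP (59.4%) and 27 of 47 with GFP (57.4%) held Tomato, and the intervals overlapped.

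**Figure D4:**
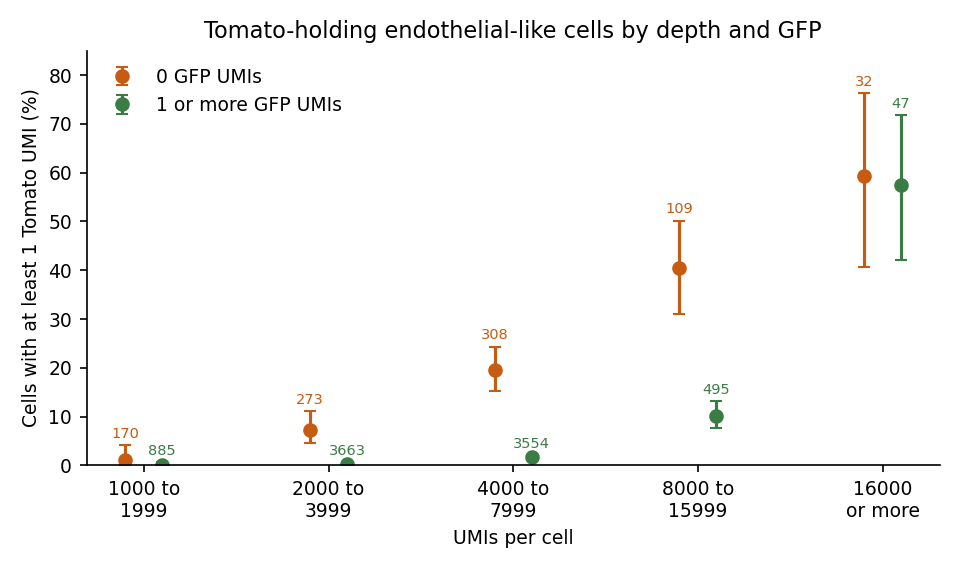
Percent of endothelial-like cells with at least 1 Tomato UMI (y axis) by UMIs per cell (x axis), for cells with 0 and with 1 or more GFP UMIs. Points carry 95% exact binomial intervals and the number of cells, and the share without GFP is above that with GFP in each bin up to 16000 UMIs (40.4% against 10.1% in the fourth) but not beyond (59.4% against 57.4%).

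Few genes differed between Tomato-holding and matched cells of all classes, and the counts that follow include GFP among the lower genes. Of 8261 genes tested, 2 were higher and 3 lower in Tomato-holding cells at an adjusted p under 0.05 (0.0605% called, 0.0242% higher and 0.0363% lower), with 330 (3.99%) at an unadjusted p under 0.05. DESeq2 called 2 higher and 1 lower. Npr3, the natriuretic peptide clearance receptor and a marker of endocardium (chromosome 15, 11839896 to 11907287, GRCm38), was higher in 6 of 6 libraries. It had 121, 79.3 and 72.4 normalized CPM in control libraries 1 to 3 against 31.1, 38.4 and 39.1 in matched cells. In Dsp_het libraries 1 to 3 it had 375, 166 and 98.3 against 0, 52.2 and 57.7. The 375 rests on 1 epicardial-like cell, as the endothelial-like cells of that library had 0. The log2 fold change of Npr3 was 1.3 (SE 0.219, edgeR adjusted p = 0.0121), and without Dsp_het library 2 it was 1.13 (adjusted p = 0.0663). Without shared barcodes it was 1.91 (adjusted p = 0.000131). It missed the threshold when matched without regard to cluster (0.38, adjusted p = 0.798), with at least 2 Tomato UMIs (1.34, 0.745), with 1 matched cell each (1.17, 0.133), without the highest doublet scores (1.03, 0.184) and with stricter cell quality (1.02, 0.132).

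Hsd11b1, which regenerates active glucocorticoid, rose by 2.13 on the log2 scale (SE 0.387, edgeR adjusted p = 0.0254), from a mean of 6.68 to 32.4 normalized CPM. It was higher in 5 of 6 libraries and listed at 0 in both sets of Dsp_het library 1. Its call was lost without control library 1 (adjusted p = 0.0733) and without Dsp_het library 2 (adjusted p = 0.735). S100a4, a calcium-binding protein of fibroblasts and leukocytes, was lower in 6 of 6 libraries (log2 fold change -1.37, SE 0.242, edgeR adjusted p = 0.0176). Lgals7, which encodes galectin-7, had a log2 fold change of -4.36 (SE 0.627, edgeR adjusted p = 0.00214). Both were furthest apart in Dsp_het library 1, where matched cells had 482 and 877 normalized CPM and Tomato-holding cells 28.9 and 28.9. Most UMIs of that library's sums came from 1 epicardial-like cell and its 3 matched cells. Without that library S100a4 missed the threshold (-1.24, adjusted p = 0.0505), and Lgals7 was too low to be tested. S100a4 also missed it with DESeq2 (-1.47, adjusted p = 0.441), with 1 matched cell each (-0.94), in another order of matching (-0.66), matched without regard to cluster (-1.11) and without the highest doublet scores (-1.33). Lgals7 missed it with DESeq2 (-2.73), with 1 matched cell each (-0.05) and without the highest doublet scores (-3.90). Hsd11b1 missed it with 1 matched cell each (1.68), with at least 2000 UMIs (2.06) and without the highest doublet scores (2.34). Without shared barcodes Hsd11b1, S100a4 and Lgals7 were too low to be tested.

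The genes with the next smallest p-values missed the threshold. Il1b, an inflammatory cytokine, was at 1.61 (edgeR adjusted p = 0.0724), Prelp, a matrix proteoglycan, at 0.75 (0.124) and Ier3, an early response gene, at 0.80 (0.147). On the lower side Pi16, a marker of adventitial fibroblasts, was at -0.73 (0.122), and Cilp, a matrix gene with adjusted p = 0.0724, was listed at 0 in every sum of Tomato-holding cells.

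Matched cells came from the same cluster, and clusters were named from these marker lists, so the matching evened out the class markers. With 0.0605% of 8261 genes called, a list without a call says little. Whatever their p-value, 51.4% of all genes tested were lower. None of the 16 endothelial markers tested passed, with a median log2 fold change of 0.07 against -0.01 for all genes, and Pecam1 and Cdh5, the endothelial junction genes, were at 0.07 and 0.11. Fibroblast markers had 16 tested, 11 of them lower and none past the threshold, and Col1a1, the main collagen, was at -0.39 (SE 0.132, edgeR adjusted p = 0.849). Of 14 macrophage markers 10 were lower and none passed, with Lyz2 at -0.27 and C1qa at -0.18. Of 11 cardiomyocyte sarcomere and calcium genes 8 were higher and none passed, with Myh6 at 0.48, Myl2 at -0.25 and Tnni3 at -0.01. Of 12 pericyte and mural markers 10 were lower and none passed, with a median of -0.24, although Rgs5 was at 0.23. Of 14 epicardial markers 11 were lower and none passed, with a median of -0.33 and Upk3b, an epicardial uroplakin gene, at -0.40. Wt1, whose regulatory sequence drives the Cre, was at -0.15 (SE 0.275, edgeR adjusted p = 1). Dsp did not pass the count filter in these fits. Among other lists, all 6 MHC class II genes and 12 of 13 mitochondrially encoded genes were higher. Of 9 cell cycle genes 8 were lower, and none of these lists had a call.

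Within endothelial-like cells, 6 of 6229 genes were higher and 4 lower in Tomato-holding cells (0.161% called, 0.0963% higher and 0.0642% lower), with 246 (3.95%) at an unadjusted p under 0.05. DESeq2 called GFP alone. Whatever their p-value, 51.2% of the 6229 genes were lower. Dcn, which encodes the matrix proteoglycan decorin and belongs to the fibroblast list, rose by 0.80 (SE 0.114, edgeR adjusted p = 1.2e-07). It had 442, 361 and 515 normalized CPM in control libraries 1 to 3 against 187, 368 and 353, and 340 and 464 in Dsp_het libraries 2 and 3 against 71.2 and 266. Control library 2 showed no difference, and Dsp_het library 1 had none in either set. The call held without each library in turn and without shared barcodes (1.56, adjusted p = 3.7e-09), but with at least 2 Tomato UMIs it was 1.18 (adjusted p = 0.103). Of the 16 fibroblast markers, 5 could be tested, 4 were higher and only Dcn passed. Summed fibroblast markers were 632, 527 and 595 CPM in control libraries 1 to 3 against 313, 535 and 435, and 450 and 700 CPM in Dsp_het libraries 2 and 3 against 303 and 512. They were thus higher in the same 4 libraries as Dcn, which is among them. In Dsp_het library 1 the sum was 0 against 1 UMI, and with that library the mean log2 ratio was -0.01 ± 1.26 (SD, n = 6, exact p = 0.969). The part of fibroblast RNA in the Dcn difference was not tested.

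Npr3 was again higher, by 1.01 (SE 0.169, edgeR adjusted p = 1.4e-05). It had 181, 120 and 93.0 normalized CPM in control libraries 1 to 3 against 43.7, 58.8 and 48.1. In Dsp_het library 3 it had 167 against 97.1, in Dsp_het library 2 86.9 against 92.2, and in Dsp_het library 1 none in either set. It was thus higher in 4 of 6 libraries, and its call held without each library in turn and without shared barcodes (1.97, adjusted p = 2.8e-05). With at least 2 Tomato UMIs it was 1.15 (adjusted p = 0.106). All 5 endocardial markers that could be tested were higher, and Npr3 alone passed.

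Junb and Fos, immediate early transcription factors that rise within minutes of a stimulus such as tissue digestion, were higher by 0.61 (SE 0.0963, edgeR adjusted p = 3.5e-06) and 0.59 (SE 0.125, edgeR adjusted p = 0.0053). Junb was higher in 5 of 6 libraries and kept its call without each library in turn and without shared barcodes (0.62, adjusted p = 0.0188). With at least 2 Tomato UMIs it was 0.85 (adjusted p = 0.0697). Fos was higher in 4 of 6, led by Dsp_het library 2 with 553 against 116 normalized CPM, and without it fell to 0.29 (adjusted p = 1). Without Dsp_het library 1 Fos stood at 0.59 (adjusted p = 0.453). Of the 18 immediate early and heat shock genes tested, 14 were higher and 4 lower, with a median of 0.17 against -0.01 for all genes, and these 2 passed. Their sum did not differ by library (mean log2 ratio 0.10 ± 0.45 (SD, n = 6, exact p = 0.625)).

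Fn1, which encodes fibronectin, was higher by 0.997 (SE 0.207, edgeR adjusted p = 0.0035) and in 4 of 6 libraries. Without control library 1, control library 3 or Dsp_het library 1 it missed the threshold, with 0.64 (adjusted p = 0.957), 0.89 (adjusted p = 0.17) and 1.01 (adjusted p = 0.0624). Cyr61, a matricellular gene named after its value was seen, was at 0.55 (edgeR adjusted p below the threshold) and lost its call without control library 1, Dsp_het library 1 or Dsp_het library 3 (0.51, 0.56 and 0.48).

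Of the 3 lower genes beside GFP, Nov, a matricellular gene of the CCN family, fell by 1.90 on the log2 scale (SE 0.412, edgeR adjusted p = 0.00599). It had 8.04, 0 and 4.96 normalized CPM in control libraries 1 to 3 against 28.7, 64.7 and 6.44, and 7.90 and 20.9 in Dsp_het libraries 2 and 3 against 29.0 and 93.3. It was lower in 5 of 6 libraries, and Dsp_het library 1 had none in either set. Its call held without control library 1 or 3 and without Dsp_het library 1 or 2. Without control library 2 or Dsp_het library 3, and with at least 2 Tomato UMIs, Nov was too low to be tested. Pdgfd, a platelet-derived growth factor, fell by 0.81 (SE 0.194, edgeR adjusted p = 0.0256) and was lower in 5 of 6 libraries. It missed the threshold without control library 3 (-0.92), Dsp_het library 2 (-0.76) or Dsp_het library 3 (-0.76). Igfbp5, an insulin-like growth factor binding protein named after its value was seen, was at -0.57 and lost its call without any 1 of the 3 Dsp_het libraries (-0.57, -0.37 and -0.42 without libraries 1, 2 and 3). It was lower in 3 of 6 libraries and higher in control libraries 2 (533 against 441 normalized CPM) and 3 (177 against 88.0), and without control library 3 it was -1.06.

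Without shared barcodes Fn1 (0.94), Fos (0.74), Cyr61 (0.01), Pdgfd (-0.76) and Igfbp5 (-0.32) missed the threshold, and Nov was too low to be tested.

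**Figure D5:**
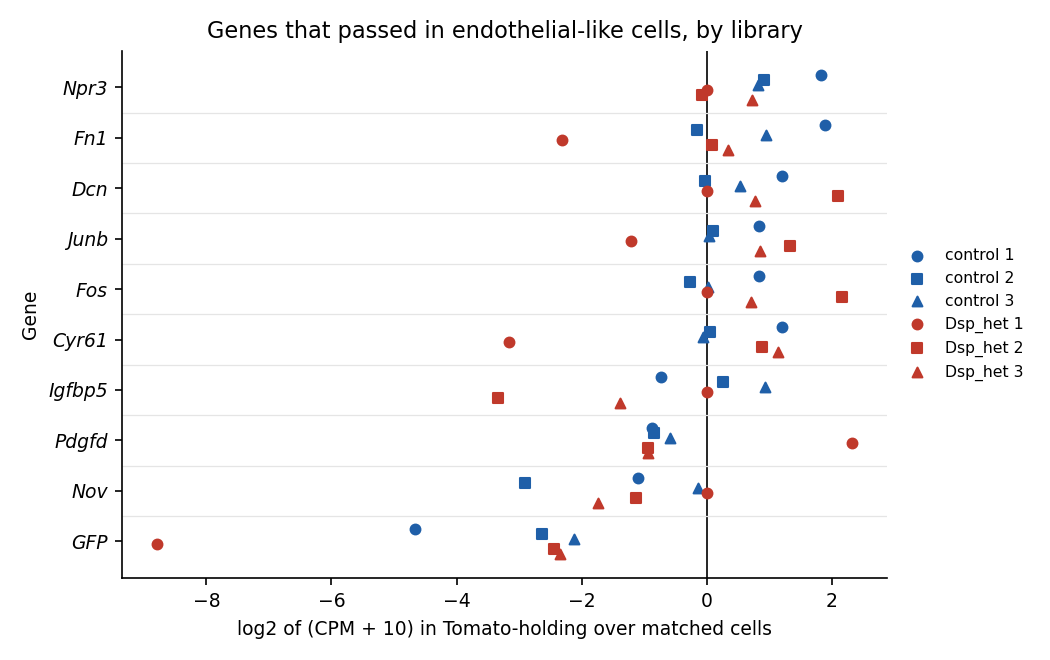
The 10 genes that passed in endothelial-like cells, with the log2 ratio of normalized CPM + 10 in Tomato-holding over matched cells (x axis) in each library. GFP is below 0 in all 6 libraries, and Dsp_het library 1, with 2 Tomato-holding cells, lies far from the others for several genes.

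The lists named next had no gene past the threshold, where 0.161% of all 6229 genes passed and 51.2% were lower. Matching within clusters evened out class markers here too. In endothelial-like cells, none of the 16 endothelial markers passed (9 higher, 7 lower, median 0.03), with Pecam1 at 0.02 and Cdh5 at 0.07. None of the 8 arterial, 5 venous and 8 capillary genes tested passed, with all 8 arterial genes (median 0.11), 2 venous and 6 capillary genes higher. All 5 desmosome genes tested were higher and none passed (median 0.10). Of 7 cardiomyocyte sarcomere genes tested 5 were higher and none passed, with Myh6 at 1.41 (SE 0.426, edgeR adjusted p = 0.274) and a median of 0.41. Macrophage markers were too low to be tested, and their sum was 110, 31.4 and 26.7 CPM in Tomato-holding cells of control libraries 1 to 3 against 19.8, 26.2 and 24.2 in matched cells. In Dsp_het libraries 1 to 3 it was 0, 39.7 and 21.9 against 0, 20.8 and 30.7, so control library 1 alone stood far apart. The transcript of the reporter's host locus, Gt(ROSA)26Sor (chromosome 6, 113067428 to 113077333, minus strand, annotated as an antisense RNA), was at -0.01 (SE 0.265, edgeR adjusted p = 0.999). The share of cells whose barcode occurred in several libraries differed by 0.618 ± 4.24 percentage points (SD, n = 6, exact p = 0.75). Mitochondrial share differed by 0.09 ± 0.265 percentage points (SD, n = 6, exact p = 0.469).

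GFP-free cells that lacked Tomato were set beside these values, in a comparison added after the data were seen. Among Tomato-free endothelial-like cells, 707 without GFP were matched in the same way to 2121 with GFP. Of 7541 genes tested, 28 were higher and 5 lower (0.438% called, 0.371% higher and 0.0663% lower), GFP itself being fixed by the choice, with 421 (5.58%) at an unadjusted p under 0.05 and 4 and 1 calls by DESeq2. Dcn was higher by 1.39 (SE 0.135, edgeR adjusted p = 1.1e-09), and in Tomato-holding cells by 0.80. Npr3 was higher by 1.36 (SE 0.22, edgeR adjusted p = 0.000319), and in Tomato-holding cells by 1.01. Junb was at 0.00 here and at 0.61 in Tomato-holding cells, Fos at -0.52 and 0.59, and Nov at -0.12 and -1.90. Of the 5 endocardial genes tested, 4 passed higher, among them Cytl1 (0.88), Plvap (0.97) and Cdh11 (1.39), where Tomato-holding cells passed for Npr3 only. Genes of lymphatic endothelium were also higher. Ccl21a, a lymphatic chemokine, had 537, 211 and 644 normalized CPM in GFP-free cells of control libraries 1 and 3 and Dsp_het library 1, against 0, 0.258 and 0 in matched cells, and 0 in the other 3 libraries. Mmrn1, a lymphatic marker, had 78.6, 51.0 and 42.9 in the same libraries and was listed at 0 in all matched cells. In Tomato-holding endothelial-like cells Ccl21a was at 1.23 (edgeR adjusted p = 0.297), with 2605 against 0 in control library 2 and 1.24 against 117 in control library 3. Maf, a transcription factor, was at 3.13 in GFP-free cells. The part of lymphatic cells in these differences was not tested. Lum, a fibroblast proteoglycan, rose by 1.89, and 8 of 13 mitochondrially encoded genes passed higher. Both comparisons draw on Tomato-free cells of the same libraries, and the difference between them was not tested.

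Between genotypes, no gene passed among the Tomato-holding cells. Of 6706 genes tested in the 6 library sums, 0 passed (0% called), with 195 (2.91%) at an unadjusted p under 0.05 and a lowest adjusted p of 0.604 in edgeR, and DESeq2 called 1. The smallest p-values, all missing the threshold, belonged to S100a4 (log2 2.91, Dsp_het over control) and to Tagln, a smooth muscle actin-binding gene (2.27). They were followed by Fabp5, a fatty acid binding protein (-1.02), and Trem2, a macrophage receptor (1.86). In S100a4 the values were 29.4, 10.6 and 17.5 normalized CPM in control libraries 1 to 3 and 31.3, 242 and 102 in Dsp_het, the lowest of which rests on 4 cells. Fabp5 had 2340, 2487 and 2241 in control and 876, 1237 and 1308 in Dsp_het, and the groups did not overlap. Heyl, a Notch target, was at 1.90 and Mest, an imprinted gene, at -1.92. Loxl2, a lysyl oxidase of the matrix, was at 2.20, the chemokine gene Ccl7 at -2.93, Mdp1 at -1.05 and Pcdh17, a protocadherin gene, at -0.97. These sums held all classes and were not matched for class. Whatever their p-value, 14 of 16 endothelial markers were lower in Dsp_het, against 50.3% of all genes tested. Higher were 15 of 16 fibroblast, 10 of 11 pericyte and mural, 12 of 14 macrophage and all 6 epicardial markers tested. None of them passed, and the part of the class mix in these differences was not tested. GFP in Tomato-holding cells was 124, 281 and 556 CPM in control and 621, 586 and 642 CPM in Dsp_het libraries 1 to 3. These groups did not overlap, and the exact permutation test gave p = 0.1, the smallest it allows (n = 3 each). The 621 CPM of Dsp_het library 1 came from 4 cells, 3 of them without GFP. It rests on 1 epicardial-like cell with 18 GFP UMIs, so the separation of the groups rests on that cell too. In the edgeR fit GFP was at 0.87 (SE 0.429, adjusted p = 1), and within endothelial-like cells the groups overlapped (exact permutation p = 0.7, n = 3 each).

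Whether Tomato-holding cells departed from their matched cells by another amount in Dsp_het was tested as an interaction. GFP showed no such difference that passed (0.66, SE 0.368, edgeR adjusted p = 1). Of 8261 genes, 2 had a larger and 3 a smaller log2 difference in Dsp_het (0.0605% called, 0.0242% larger and 0.0363% smaller), with 235 (2.84%) at an unadjusted p under 0.05, and DESeq2 called 1. They were Ccl2, Ccl7 and Ptn (smaller) and Ccl8 and Hist1h2ap (larger), with values per library given in the closing section.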

How the data were processed

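The authors deposited raw UMI counts of 31055 genes in 18283 barcodes. The barcode table holds the authors' total counts, which equalled the column sums of the matrix for 18283 barcodes. GRCm38 and Seurat are named in the submitters' processing notes. For the aligner and the counter, neither is given in the sources used here. Barcode suffixes were mapped to samples by the sample number in the labels. Of 13082 barcodes with at least 1000 UMIs, 589 second occurrences were left out.

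Cells were clustered without both reporters in scanpy (1.11.5) with 2000 variable genes, 30 components, 15 neighbours and Leiden resolution 1, and doublets were not removed. A cluster was named where at least 3 usable markers of a fixed list stood at 0.25 or more of their highest level. Sums of Tomato-holding and matched cells were fitted with edgeR (4.0.16, quasi-likelihood, TMM, filterByExpr with a minimum count of 10, library as a block), two-sided and adjusted by Benjamini-Hochberg over all genes fitted. DESeq2 (1.42.0) was an alternative. The SE given with an edgeR fold change is its absolute value over the square root of the F statistic, not the SD over libraries. Normalized CPM are after TMM, and other CPM are of summed UMIs. Intervals are 95% Clopper-Pearson. The fits were also run on counts simulated from these means, with 200 genes changed by 2 on the log2 scale. Of these, 98.5% were found for all Tomato-holding cells, 99% for endothelial-like cells, 71% for the interaction and 87.5% between genotypes. There were 12, 8, 3 and 7 false calls in that order. These shares hold for the simulated counts only. How many changes of that size would be found in the measured counts was not tested.

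Named genes were up to 12 with the largest change in each direction at an adjusted p under 0.05, the same direction in at least 5 of 6 libraries (separated groups between genotypes) and at least 10 CPM, up to 4 per list that passed, and the 5 smallest p in each direction where fewer than 10 passed. GFP, Wt1, Dsp, Myh6, Myl2, Tnni3, Pecam1, Cdh5, Upk3b, Col1a1, Lyz2, C1qa and Rgs5 were always named where testable. Members and lists were chosen with earlier results of these data known. The cells were clustered and matched more than once with results in view. The naming rule was changed to require 3 usable markers after clusters had been seen. The clustering was later repeated on a fixed numerical path, so that it can be rerun exactly, which moved cells between clusters. GFP was lower in both rounds, but several other called genes changed: in the first round S100a4 was not called, Stmn1 and Hmgb2 were, and summed cell cycle genes were lower in every library. Those first values are not reported.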

Additional observations from a re-analysis of the deposited data

Results flagged for a closer look

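The difference between Tomato-holding and matched cells was not the same in both genotypes for 5 genes, by the edgeR interaction test. Ccl2, a chemokine that draws monocytes, had a difference in Dsp_het minus control of -4.53 on the log2 scale (adjusted p = 4.9e-07). It was 191 against 106, 0 against 19.2 and 81.3 against 47.6 normalized CPM (Tomato-holding against matched) in control libraries 1 to 3. It was 0 against 803, 17.9 against 102 and 35.9 against 526 in Dsp_het libraries 1 to 3. Ccl7, a related chemokine, had -4.49 (adjusted p = 0.006), with 172 against 17.4, 198 against 19.2 and 43.3 against 27.3 in control and 0 against 136, 4.49 against 43.3 and 13.2 against 56.3 in Dsp_het. Ptn, which encodes the growth factor pleiotrophin, had -2.56 (adjusted p = 0.0277) and was lower in Tomato-holding cells of all 3 Dsp_het libraries and of control library 3.

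Ccl8, another chemokine, had 2.84 (adjusted p = 0.0203), with 13.5 against 84.1, 5.67 against 1.92 and 15.9 against 95.5 in control and 13.5 against 1.49 and 70.0 against 61.7 in Dsp_het libraries 2 and 3. Hist1h2ap, a replication histone with near-identical copies whose counts are uncertain, had 4.42 (adjusted p = 0.0203), led by control library 1 (5.39 against 88.6) and Dsp_het library 3 (64.3 against 6.04). DESeq2 called Ccl7 alone (-5.21, adjusted p = 0.0112), and Ccl2 missed the threshold there (-3.94, adjusted p = 1). In the edgeR fits Ccl2 and Ccl7 kept their call without each library in turn. Matched without regard to cluster, 1 gene had a larger and 0 a smaller difference, so Ccl2, Ccl7 and Ptn were not called smaller there. Without the highest doublet scores the counts were 2 and 3, with a lowest edgeR adjusted p of 0.0464. Hist1h2ap lost it without control library 1 (2.95, adjusted p = 1) or Dsp_het library 3 (2.84, adjusted p = 0.594). Ccl8 lost it without control library 1 (2.82), control library 3 (2.70), Dsp_het library 2 (1.98) or Dsp_het library 3 (5.49). Ptn lost it without control library 1 (-2.07), Dsp_het library 1 (-2.60) or Dsp_het library 3 (-1.88). With at least 2 Tomato UMIs the difference was 0.92 for Ccl2, 0.92 for Ccl7 and -5.79 for Ccl8, none past the threshold. Without shared barcodes Ptn missed the threshold (-2.69), and the other 4 genes were too low to be tested. Dsp_het library 1 entered with 3 Tomato-holding cells.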

How the results depend on the processing

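The lower GFP in Tomato-holding cells and the higher share without GFP kept their direction in every alternative run. By edgeR, GFP ranged from -2.73 to -2.09 in all cells and from -3.22 to -2.41 in endothelial-like cells, past the threshold in each. Without each library in turn the mean log2 ratio ranged from -2.72 to -2.13 in all cells and from -4.22 to -2.84 in endothelial-like cells, and the share without GFP differed by 33.7 to 42.5 and 40.6 to 54.8 percentage points. Other calls depended on the settings. Counts of genes higher and lower in Tomato-holding cells were 2 and 3, and 19 and 37 without a low-count filter, 223 and 689 when cells were matched without regard to cluster, and 9 and 1 without barcodes found in several libraries. Higher genes fell to 0 with at least 2 Tomato UMIs, to 1 with at least 2000 UMIs and to 0 without the 6% highest doublet scores, and DESeq2 called 1 lower. In endothelial-like cells, 6 and 4 became 0 and 1 with DESeq2, lower genes were 10 without the filter, and 2 with at least 2 Tomato UMIs or without shared barcodes. For the interaction, 2 and 3 became 0 and 1 with DESeq2, 13 and 14 without the filter, 1 and 0 with at least 2 Tomato UMIs and 11 and 1 without shared barcodes. They became 1 and 0 when cells were matched without regard to cluster. Between genotypes, DESeq2 and leaving out shared barcodes each gave 1 higher gene, and no filter gave 79 and 29. The added comparison of GFP-free cells gave 4 and 1 with DESeq2 and 47 and 23 without the filter. Clusters from another seed, an alternative chosen after seeing the data, gave 6 lower genes in all cells and 6 larger interactions. Without each library in turn, higher and lower genes ranged from 0 to 4 and 1 to 8 in all cells, from 3 to 14 and 1 to 9 in endothelial-like cells, from 0 to 7 and 2 to 10 for the interaction, and were 0 and 0 between genotypes. With at least 2 Tomato UMIs, Ccl2 turned to 0.921, Ccl7 to 0.918, Ccl8 to -5.79 and S100a4 to 0.372, and the genotype difference of the share of Tomato-holding cells to 0.553 percentage points, which ranged from -2.49 to 1.10 without each library. Hsd11b1 turned to -0.0875 when matched without regard to cluster. Summed cell cycle genes stood at -0.10 in endothelial-like cells, -0.726 when matched without regard to cluster, 0.0197 with at least 2 Tomato UMIs and from -0.278 to 0.00671 without each library. The cause was not tested. The labels give both groups replicate numbers, but same-numbered libraries did not deviate together (correlations -0.101, -0.065 and -0.021 over 6706 genes). With a replicate block, 0 of 7426 genes passed between genotypes (lowest adjusted p = 0.386), and the difference in the share stayed at -0.461 points (exact p = 1). Some genes were too low to be tested under a given alternative and have no value there. Of the Tomato-holding cells, 269 rest on 1 UMI, so membership itself is limited by depth.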
